A study of Musa acuminata AAA Group with 4 samples.

Results

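The comparison described here sets banana roots kept low in potassium against roots given a normal supply, across every gene in the authors' deposited root table. All 4747 genes of that table were taken, of 5520 genes listed in root or leaf, and none was left out for its function. The plants were Cavendish seedlings (*Musa acuminata* AAA Group), a triploid dessert banana that is propagated as a clone. The normal group grew for 60 days in complete Hoagland solution, a standard mineral medium, and the low group for 60 days in a solution low in potassium. The labels name no genetic change, and both groups are of the same cultivar. Each group has 1 library, and nothing in the labels says whether it held RNA of 1 plant or of several. A gene is listed where the authors' false discovery rate was below 0.001 and its FPKM differed by at least 2-fold, where FPKM is the number of fragments scaled to gene length and library size. That each listed gene differs is therefore the rule and not a result, and its direction and size are a description of these libraries with no replicate check.

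Roots take up potassium at the epidermis through channels such as AKT1 and carriers of the KUP/HAK family, and calcium sensors of the CBL type with their CIPK kinases switch these proteins on. In the cell, potassium is the main dissolved ion that keeps turgor for expansion, and it is needed by ribosomes and by enzymes such as pyruvate kinase. In *Arabidopsis*, potassium-starved roots are known to produce reactive oxygen, ethylene and jasmonate signals.

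The normal-potassium root library held 4555265 fragments assigned to genes and the low-potassium library 4312711, both computed from the deposited values. The listed genes held 26.5% and 26.6% of them. Where a pair of FPKM values is given, normal potassium comes first. A fold is the ratio of that pair, and the interval beside it is a 95% interval for counting error alone, which does not cover differences between plants. A dagger (†) after a gene's identifier says that its count was not whole in at least 1 library, as can arise when a fragment is split among near-identical copies, so its value is uncertain. This holds for all but 2678 of the listed genes. The labels' protocol names no step that marks the strand, so antisense transcripts cannot be told apart from those of the gene. In whole-root RNA, fewer cells of a type and less RNA per cell cannot be told apart.

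In low potassium 1917 genes were higher, which is 40.4% of the table, and 2830 were lower, which is 59.6%. The higher genes had a median fold of 3.22 and the lower genes of 3.48. At least 4-fold differences were found for 692 higher genes (14.6% of the table) and 1159 lower genes (24.4%). Past 16-fold the numbers were closer, with 82 higher and 94 lower. The share of higher genes differed by level. Of the 811 genes under 10 FPKM in both libraries 26.5% were higher, and of the 858 genes whose larger value lay between 100 and 1000 FPKM it was 51.6%. Among the 54 genes that reached 1000 FPKM it was 40.7%. The median higher gene measured 11.3 FPKM in normal and 38.3 in low potassium, and the median lower gene 23.6 and 6.62. Higher genes went from 6.09% to 20.1% of the library, and lower genes from 20.5% to 6.43%. As the listed genes held nearly the same share of both libraries, these changes mirror each other.

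**Figure D1:**
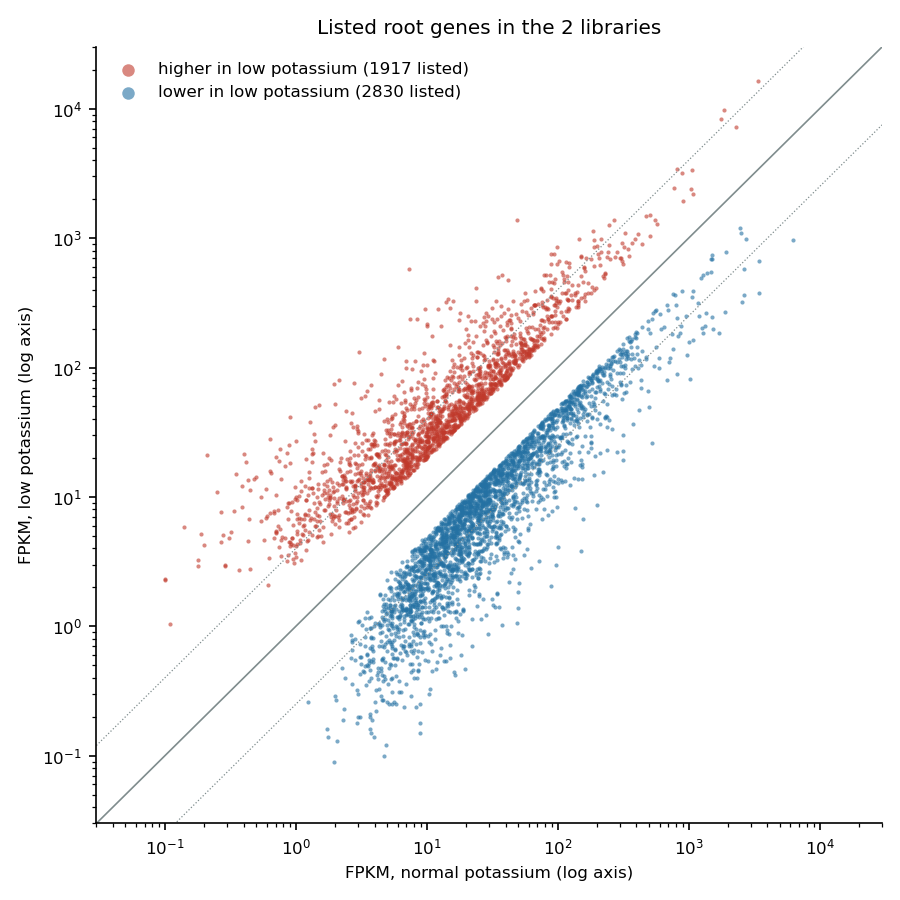
FPKM of each listed root gene in the normal-potassium library (horizontal, log axis) and the low-potassium library (vertical, log axis), 1 point per gene, red where higher and blue where lower in low potassium. The solid line marks equal values and the dotted lines 4-fold differences, and the empty band along the solid line is the 2-fold limit of the table. Genes at 0 in either library are not drawn.

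No fragment was counted in 1 of the libraries for 25 higher and 44 lower genes, and their folds are lower bounds against a floor of 3 counts. The highest level among the former was that of a glu S.griseus protease inhibitor-like gene (Ma04_g13620), of a family that blocks serine proteases, at 0 and 115 FPKM and at least 30.3-fold higher. An ocs element-binding factor 1-like gene (Ma03_g25550), a bZIP transcription factor, was at 0 and 34.0 FPKM, at least 19.4-fold higher. On the other side, oxygen-dependent coproporphyrinogen-III oxidase (Ma02_g04400†), an enzyme of haem and chlorophyll synthesis, measured 21.7 FPKM in normal potassium and 0 in low, at least 35.9-fold lower. The calcium-binding protein CML30 gene (Ma10_g25710) went from 23.5 FPKM to 0, at least 16.7-fold lower. Of the 3 listed genes for ILI6-like, a helix-loop-helix factor, Ma03_g22400 and Ma02_g09310 were also at 0 in low potassium, from 37.0 and 24.99 FPKM.

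Protein descriptions gave a name for 3714 genes, and 2519 of these fell into 91 lists by words in the description. Directions were far from even across functions. Of the 76 lists with 10 or more members, 16 were lower for at least 90% of their members and 9 were higher for at least 75%, against 59.6% and 40.4% in the whole table. The lists were written and extended with values of these data known, so these counts of lists are a description only. Almost wholly lower were the machinery of cell division and the cytoskeleton, ribosomes, the central carbon pathways, the methyl cycle, sterol synthesis and the nucleotide sugars that feed the cell wall. Mostly higher were WRKY and NAC transcription factors, MAP kinases, trehalose metabolism, germins, metal handling, the ethylene genes and the TIFY genes that jasmonate induces. The 1033 genes with no protein name were higher in 43.6%.

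**Figure D2:**
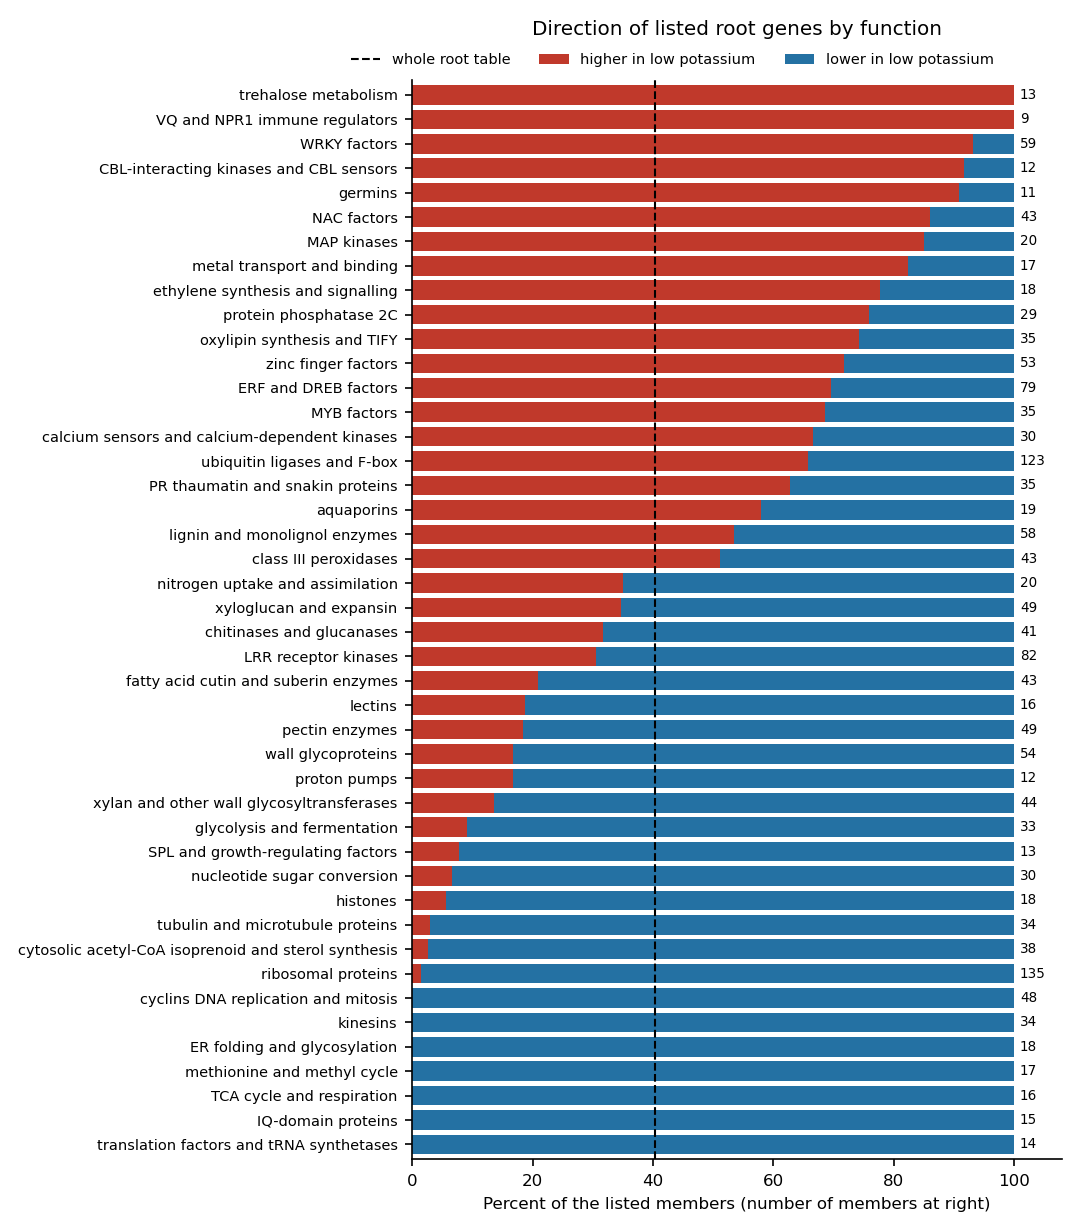
Percent of the listed members of 44 functions, chosen after their values were seen, that were higher (red) or lower (blue) in low-potassium root, with the number of members at the right. The dashed line is the percent higher over the whole root table, and the bars run from trehalose metabolism with all 13 members higher to lists such as the 48 cell division genes with all members lower.

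The abundant higher transcripts were those of metal binding, water movement, the cell wall surface and stress protection. The metallothionein-like protein 2A gene (Ma01_g10480), a small cysteine-rich metal binder, was the most abundant, at 3399 against 16295 FPKM (4.79-fold higher, interval 4.61 to 4.99). Among water channels of the plasma membrane, PIP1-2 (Ma07_g18280†) measured 1849.9 against 9765 FPKM (5.28-fold higher, interval 5.14 to 5.42) and PIP2-2 (Ma11_g00520†) 815 against 3408 FPKM (4.18-fold higher, interval 4.02 to 4.35). A germin-like protein 2-1 gene (Ma05_g29070†), of a family of secreted cupin proteins, measured 1758 against 8331 FPKM (4.74-fold higher, interval 4.60 to 4.89). Protective proteins of dry tissue came next, although not all of them were higher. The list of late embryogenesis proteins and dehydrins had 8 higher and 4 lower members, and 1 was higher and 3 lower by at least 4-fold. The late embryogenesis abundant protein Lea5-D gene (Ma06_g21680) measured 2305 against 7179 FPKM (3.11-fold higher, interval 2.99 to 3.25) and dehydrin COR410 (Ma11_g01190†) 506 against 1508 FPKM (2.98-fold higher, interval 2.81 to 3.16). An auxin-repressed protein gene (Ma04_g39810), of a family linked to dormancy in other plants, was at 1069 against 3341 FPKM (3.13-fold higher, interval 2.95 to 3.31). Neighbouring loci for pathogenesis-related protein 1-like (Ma08_g34150†) and a phytohormone-binding protein (Ma08_g34160†) measured 886 against 3201 FPKM (3.61-fold higher, interval 3.43 to 3.81), and 774 against 2453 FPKM (3.17-fold higher, interval 3.01 to 3.34). Mitochondrial uncoupling protein 5-like (Ma10_g24950†), a carrier of the inner mitochondrial membrane, was at 902 against 1951 FPKM (2.16-fold higher, interval 2.08 to 2.25). The 15 most abundant higher genes together held 17.3% of the fragments of all higher genes in low potassium.

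The abundant lower transcripts were lectins, a protease inhibitor, enzymes of sugar breakdown, tubulin and proline-rich wall proteins. Lectins named mannose/glucose-specific lectin-like, which bind sugars, led with Ma09_g10440† at 6270.1 against 966 FPKM (6.49-fold lower, interval 5.98 to 7.06) and Ma09_g10460† at 3459 against 667 FPKM (5.19-fold lower, interval 4.86 to 5.53). The coding length given for the first is 192 bases against 426 for the second, so its FPKM is the larger although it had fewer fragments. A Bowman-Birk type proteinase inhibitor (Ma05_g10670†) measured 3440.4 against 375 FPKM (9.17-fold lower, interval 8.45 to 9.98), and hevamine-A-like (Ma08_g33270†), a chitinase, 2569.8 against 322 FPKM (7.97-fold lower, interval 7.52 to 8.45). Enzymes of sugar use were lower by smaller folds. Cytoplasmic fructose-bisphosphate aldolase (Ma08_g01140†) measured 2757 against 989 FPKM (2.79-fold lower, interval 2.69 to 2.88), and sucrose synthase 2-like (Ma02_g23730†), which splits sucrose for metabolism and wall synthesis, 2486 against 1197 FPKM (2.08-fold lower, interval 2.03 to 2.12). The tubulin alpha-3 chain gene (Ma08_g20020†) was at 1945 against 784 FPKM (2.48-fold lower, interval 2.40 to 2.57). The proline-rich protein DC2.15-like genes Ma05_g15370† and Ma04_g33380† differed more, at 1884 against 268 FPKM (7.02-fold lower, interval 6.32 to 7.80) and 1694 against 185 FPKM (9.15-fold lower, interval 8.10 to 10.4).

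**Figure D3:**
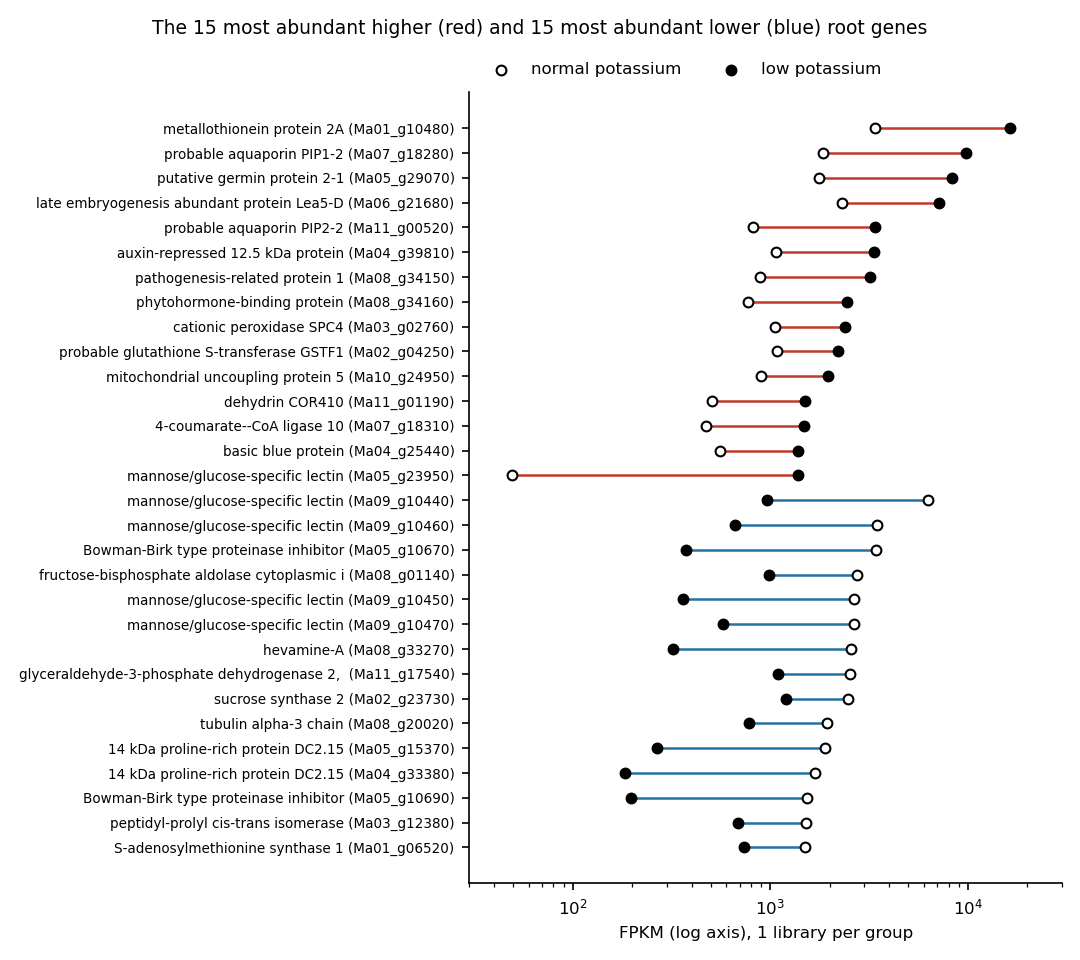
FPKM (log axis) of the 15 most abundant higher genes (red lines) and the 15 most abundant lower genes (blue lines) in the normal (open circles) and low-potassium (filled circles) root libraries, 1 library each. Metallothionein 2A reaches 16295 FPKM in low potassium, and a single lectin gene among the higher ones starts from 49.3 FPKM.

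Genes of central carbon metabolism were lower almost throughout. Glycolysis and fermentation had 30 lower of 33 listed genes, with a median log2 ratio of -1.48 against -1.20 over the whole table, and its share of the library went from 1.05% to 0.382%. Cytosolic glyceraldehyde-3-phosphate dehydrogenase (Ma11_g17540†) measured 2523 against 1092 FPKM (2.31-fold lower, interval 2.23 to 2.39), and enolase (Ma01_g03570), which makes phosphoenolpyruvate, 680.4 against 302 FPKM (2.25-fold lower, interval 2.13 to 2.39). Far larger was the difference for alcohol dehydrogenase (Ma08_g29910†), the enzyme of ethanol fermentation, at 281 against 22.4 FPKM (12.5-fold lower, interval 10.3 to 15.4). The 3 higher members were all of low level: L-lactate dehydrogenase A-like (Ma07_g06750†) at 2.81 against 15.1 FPKM (5.36-fold higher, interval 2.93 to 10.6), a plastid-type phosphofructokinase 5 (Ma07_g11340†) at 2.40 against 7.61 FPKM, and alcohol dehydrogenase-like 7 (Ma07_g11510†) at 2.09 against 6.97 FPKM. In the mitochondria, all 16 listed genes of the citric acid cycle and respiration were lower, with a median log2 ratio of -1.29. Examples were malate dehydrogenase (Ma04_g08620†) at 401 against 144 FPKM (2.78-fold lower, interval 2.54 to 3.05) and the ADP,ATP carrier protein 1 (Ma03_g10760†), which exports ATP to the cytosol, at 332 against 64.9 FPKM (5.11-fold lower, interval 4.54 to 5.78).

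Sucrose use differed by enzyme. The sucrose synthases Ma10_g18610†, Ma06_g12350† and Ma03_g01820† were lower together with the abundant copy above, from 883, 561 and 107 FPKM to 393, 145 and 29.0. A cell wall invertase-type gene, beta-fructofuranosidase insoluble isoenzyme 3-like (Ma06_g14700†), went from 49.2 to 1.07 FPKM, 46.0-fold lower (interval 22.9 to 106), whereas another gene of that name (Ma04_g36400†) was at 4.72 against 12.1 FPKM (2.57-fold higher, interval 1.73 to 3.87). The neutral invertases CINV2-like, which split sucrose inside the cell, were higher. Ma02_g03720† measured 8.02 against 58.3 FPKM (7.27-fold higher, interval 5.69 to 9.34) and Ma05_g18400 3.34 against 13.0 FPKM (3.89-fold higher, interval 2.48 to 6.31). Sucrose-phosphate synthase (Ma04_g16190), which makes sucrose, was at 2.12 against 6.64 FPKM (3.13-fold higher, interval 2.06 to 4.87). For starch, granule-bound starch synthase 1 (Ma01_g03500) was at 8.35 against 1.28 FPKM (6.52-fold lower, interval 3.34 to 14.2), while the amylases Ma05_g08040† and Ma08_g04100 were 2.39-fold and 2.11-fold higher.

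All 13 listed genes of trehalose metabolism were higher, with a median log2 ratio of 2.26, and their share of the library went from 0.0456% to 0.194%. Trehalose-6-phosphate is a signal of sugar status in plants. The most abundant synthase-type gene (Ma08_g28360†) measured 63.6 against 206 FPKM (3.24-fold higher, interval 2.99 to 3.52), and a second (Ma03_g04770†) 19.6 against 153 FPKM (7.81-fold higher, interval 6.80 to 9.02). The class of these proteins to which most plant members belong has little or no synthase activity in *Arabidopsis*. The phosphatases, which remove the phosphate, included trehalose-phosphate phosphatase 6 genes Ma07_g11470 at 22.4 against 124 FPKM (5.56-fold higher, interval 4.54 to 6.85) and Ma10_g19040 at 30.2 against 104 FPKM (3.44-fold higher, interval 2.85 to 4.19).

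All 17 genes of the methionine and methyl cycle were lower, with a median log2 ratio of -1.39, and the list went from 1.06% to 0.401% of the library. S-adenosylmethionine is the methyl donor of lignin, sterol and nucleic acid methylation and the precursor of ethylene. Its synthases Ma01_g06520† and Ma02_g09900† measured 1499 against 741 FPKM (2.02-fold lower, interval 1.94 to 2.10) and 1241 against 495 FPKM (2.51-fold lower, interval 2.40 to 2.63), and another (Ma01_g09270†) 233 against 42.5 FPKM (5.49-fold lower, interval 4.75 to 6.399). Adenosylhomocysteinase, which clears the product of methylation, had copies Ma06_g08140† at 1282 against 520.4 FPKM (2.46-fold lower, interval 2.37 to 2.57) and Ma09_g01600† at 610.2 against 198 FPKM (3.09-fold lower, interval 2.89 to 3.30).

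Sterol and isoprenoid synthesis from cytosolic acetyl-CoA was lower for 37 of 38 genes, with a median log2 ratio of -1.75. The genes span the route from its start to its end. ATP-citrate synthase alpha chain (Ma08_g06070†), which makes the acetyl-CoA, measured 179.9 against 26.1 FPKM (6.90-fold lower, interval 5.77 to 8.30), and isopentenyl-diphosphate isomerase (Ma06_g13430) 327 against 105 FPKM (3.12-fold lower, interval 2.82 to 3.46). Obtusifoliol 14-alpha demethylase (Ma10_g12270†), a sterol-forming P450, differed most among the abundant ones, at 415 against 47.1 FPKM (8.81-fold lower, interval 7.81 to 9.99). Delta(24)-sterol reductase, which acts late in the route and is needed for brassinosteroids, had copies Ma04_g20280† at 304 against 74.97 FPKM (4.05-fold lower, interval 3.69 to 4.47) and Ma05_g13270† at 251 against 85.9 FPKM (2.92-fold lower, interval 2.68 to 3.19). The sole higher member was a hydroxymethylglutaryl-CoA synthase-like gene (Ma04_g04760) at 2.69 against 8.01 FPKM (2.98-fold higher, interval 1.68 to 5.52). The brassinosteroid enzyme cytochrome P450 90B1-like (Ma08_g27070) was lower as well, at 277 against 60.8 FPKM (4.56-fold lower, interval 4.08 to 5.11).

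Nucleotide sugars are the building blocks of wall polysaccharides, and 28 of 30 genes for their conversion were lower, 17 of them by at least 4-fold, with a median log2 ratio of -2.12. UDP-arabinopyranose mutase 1-like (Ma04_g30000†) was the most abundant, at 1196 against 251 FPKM (4.76-fold lower, interval 4.47 to 5.08). UDP-glucose 6-dehydrogenase 4-like (Ma04_g10810†), which opens the route to xylose, arabinose and pectin sugars, measured 76.7 against 9.59 FPKM (8-fold lower, interval 6.11 to 10.7), and GDP-mannose 4,6 dehydratase 1-like (Ma10_g08850†), for fucose, 171 against 22.1 FPKM (7.72-fold lower, interval 6.31 to 9.53). The 2 higher members were epimerases, UDP-glucuronate 4-epimerase 1 (Ma09_g13070†) at 38.3 against 108 FPKM (2.82-fold higher, interval 2.41 to 3.29) and UDP-glucose 4-epimerase 1-like (Ma06_g23280†) at 10.1 against 52.1 FPKM (5.17-fold higher, interval 3.73 to 7.17).

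Genes of protein synthesis were lower by small and even folds. Ribosomal proteins were lower for 133 of 135 genes, with a median log2 ratio of -1.26, and only 3 were lower by at least 4-fold. Their share of the library went from 1.201% to 0.495%. The 2 higher members both carry names of the plastid ribosome, L29 (Ma07_g12470†) at 33.7 against 82.8 FPKM (2.46-fold higher, interval 1.88 to 3.29) and L12 (Ma10_g18960†) at 18.3 against 44.4 FPKM (2.42-fold higher, interval 1.62 to 3.57). All 14 translation factors and tRNA synthetases were lower, among them elongation factor 1-alpha, which brings aminoacyl-tRNA to the ribosome, with Ma03_g18930† at 1495 against 686 FPKM (2.18-fold lower, interval 2.10 to 2.26) and Ma10_g13420† at 1087 against 394 FPKM (2.76-fold lower, interval 2.63 to 2.90). In the endoplasmic reticulum, where secreted proteins fold, all 18 listed genes were lower. Calreticulin-like (Ma05_g29490†) measured 267 against 62.5 FPKM (4.28-fold lower, interval 3.78 to 4.83), and the chaperone luminal-binding protein 2-like (Ma09_g24180†) 207 against 78.7 FPKM (2.62-fold lower, interval 2.40 to 2.87). All 10 genes of nuclear transport and all 7 peptidyl-prolyl isomerases were lower too. Of 20 genes of the nucleolus and RNA processing 17 were lower, but nucleolar protein 58-like (Ma05_g23080), by its name a ribosome assembly factor, measured 128 against 435 FPKM (3.40-fold higher, interval 2.86 to 4.06), and the splicing factor SR45-like (Ma02_g18960) 41 against 224 FPKM (5.47-fold higher, interval 4.29 to 7.05).

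The genes of cell division were lower without exception. All 48 listed genes of cyclins, DNA replication and mitosis were lower, with a median log2 ratio of -2.09, 25 of them by at least 4-fold. Proliferating cell nuclear antigen (Ma10_g14040), the sliding clamp of DNA replication, measured 95.2 against 11.0 FPKM (8.63-fold lower, interval 6.10 to 12.5). The mitotic kinases CDKB1-1 (Ma06_g00930†) and CDKB2-1-like (Ma06_g00530†) measured 61.4 against 11.1 FPKM (5.53-fold lower, interval 3.97 to 7.86) and 59.1 against 15.01 FPKM (3.94-fold lower, interval 2.96 to 5.34). The syntaxin KNOLLE (Ma01_g17220), which fuses vesicles at the cell plate of dividing cells, was at 78.3 against 13.1 FPKM (5.98-fold lower, interval 4.44 to 8.197). Histones were lower for 17 of 18, for example H2B.11 (Ma10_g22780†) at 216 against 93.4 FPKM (2.31-fold lower, interval 1.93 to 2.79), with histone H3.v1-like (Ma08_g08400) the exception at 1.18 against 12.2 FPKM (10.3-fold higher, interval 4.14 to 33.2). All 34 kinesins, motors of the spindle and of microtubule transport, were lower, with a median log2 ratio of -1.91. A narrower set of markers of dividing root tip, taken by words for histones, cyclins and their kinases, kinesins, replication licensing factors, DNA polymerases and PLETHORA, overlaps these lists and was lower for 75 of 76 listed genes, and their summed level went from 2407 to 885 FPKM. A cyclin-dependent kinases regulatory subunit 1-like gene (Ma02_g13560†) was at 39.1 FPKM in normal and 0 in low potassium. Whether the low-potassium roots held a smaller share of dividing tip was not measured, and its part in the lower level of ribosomal, wall and cytoskeleton genes was not tested.

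Most genes of the cytoskeleton and of growth regulation were lower too. Tubulin and microtubule proteins were lower for 33 of 34, with a median log2 ratio of -2.05, and their share of the library went from 0.742% to 0.226%. Tubulin copies differed in level and in size of change. The tubulin alpha-2 chain gene (Ma02_g19010†) was 6.39-fold lower (1004 against 157 FPKM, interval 5.96 to 6.87), while the alpha-3 copy above was 2.48-fold lower. Of the genes named tubulin beta-7 chain-like, Ma05_g12090† measured 259.6 against 33.6 FPKM (7.73-fold lower, interval 6.63 to 9.02) but Ma06_g06200† 51.1 against 119 FPKM (2.34-fold higher, interval 2.04 to 2.69). All 15 IQ-domain proteins, microtubule-associated calmodulin binders, were lower, such as IQ-DOMAIN 14 (Ma03_g15830) at 63.8 against 9.37 FPKM (6.81-fold lower, interval 5.08 to 9.29). Actin, myosin and formin genes were lower for 25 of 29, for example actin-3 (Ma09_g08490†) at 163 against 29.8 FPKM (5.45-fold lower, interval 4.56 to 6.58). Growth-regulating and squamosa-promoter-binding-like factors, which promote organ growth and phase change, were lower for 12 of 13. Growth-regulating factor 6-like (Ma08_g27250) went from 152 to 17.9 FPKM, 8.52-fold lower (interval 7.13 to 10.2).

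Genes for the synthesis of cellulose, xylan, pectin and wall glycoproteins were mostly lower. All 4 listed catalytic subunits of cellulose synthase were lower. Subunits 9 (Ma07_g20880), 7 (Ma05_g15620†) and 4 (Ma09_g05430†) measured 93.4 against 11.0 FPKM (8.51-fold lower, interval 7.17 to 10.2), 78.7 against 8.01 FPKM (9.82-fold lower, interval 8.05 to 12.1) and 61.5 against 6.20 FPKM (9.92-fold lower, interval 7.86 to 12.7). By name they match the rice subunits of the secondary wall, and their folds lay within each other's intervals. COBRA-like protein 4 (Ma04_g14410†), which in other plants acts in cellulose assembly of secondary walls, was at 44.3 against 2.59 FPKM (17.1-fold lower, interval 10.2 to 31.0). Pectin enzymes were lower for 40 of 49 with a median log2 ratio of -2.06. The pectinesterase-like genes Ma04_g40060 and Ma11_g05190†, which remove methyl groups from pectin, measured 248 against 39.1 FPKM (6.35-fold lower, interval 5.59 to 7.23) and 120.4 against 26.6 FPKM (4.52-fold lower, interval 3.87 to 5.32). Wall glycoproteins were lower for 45 of 54, and went from 0.729% to 0.290% of the library. Besides the DC2.15-like genes above, a proline-rich protein (Ma01_g20030) was at 865 against 184 FPKM (4.69-fold lower, interval 4.28 to 5.16). An exception was leucine-rich repeat extensin-like protein 6 (Ma02_g14520†), at 117 against 509.6 FPKM (4.34-fold higher, interval 3.96 to 4.76). Xylan and other wall glycosyltransferases were lower for 38 of 44.

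Counted by name after their values had been seen, the families of wall-loosening genes went apart. Of 15 listed expansins 14 were lower, while xyloglucan endotransglucosylases, which cut and rejoin xyloglucan, had 14 higher and 12 lower members, the most abundant of them higher. Those numbered 25 (Ma10_g23400†), 23 (Ma09_g13330†) and 30 (Ma11_g16450†) measured 159 against 587 FPKM (3.70-fold higher, interval 3.37 to 4.08), 150.5 against 711 FPKM (4.72-fold higher, interval 4.30 to 5.19) and 62.6 against 287 FPKM (4.59-fold higher, interval 4.03 to 5.25). Others of the family were lower, such as number 8 (Ma01_g03800) at 76.3 against 6.80 FPKM (11.2-fold lower, interval 7.45 to 17.6). Expansin-A11-like (Ma09_g24560†), of the acid growth proteins, was lower, at 153 against 16.9 FPKM (9.03-fold lower, interval 6.81 to 12.2), and so was expansin-A7 (Ma02_g18110†), a root hair gene in *Arabidopsis*, at 26.1 against 7.06 FPKM (3.69-fold lower, interval 2.27 to 6.01). The whole list, which also holds 8 genes of xyloglucan synthesis and modification, had 17 higher and 32 lower members. That is 34.7% higher, near the 40.4% of the whole table. Its share of the library went from 0.179% to 0.283%, so in summed level the abundant higher genes outweighed the lower ones.

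Lignin and monolignol enzymes had 31 higher and 27 lower members, and their share of the library went from 0.402% to 0.829%. Phenylalanine ammonia-lyase (Ma05_g03720†), the entry step, measured 93.6 against 453 FPKM (4.84-fold higher, interval 4.50 to 5.21). The 4-coumarate--CoA ligase-like 10 genes Ma07_g18310†, Ma09_g20540† and Ma02_g05950† measured 474 against 1477 FPKM (3.11-fold higher, interval 2.99 to 3.24), 187 against 1129 FPKM (6.03-fold higher, interval 5.68 to 6.397) and 120.1 against 457 FPKM (3.80-fold higher, interval 3.53 to 4.11). They carry much of the rise in the list's summed level, from 3616 to 6686 FPKM. These ligase-like genes are in the list by name alone, and whether they act in monolignol synthesis was not tested. Among enzymes that polymerise lignin, laccase-22-like (Ma11_g22550†), a copper oxidase of monolignols, measured 96.5 against 2.97 FPKM (32.5-fold lower, interval 21.1 to 52.8), and dirigent protein 1-like (Ma10_g16860†), of a family that guides the coupling of monolignol radicals, 223 against 15.6 FPKM (14.3-fold lower, interval 10.1 to 20.5). Counted after their values had been seen, laccases were 3 higher and 6 lower and dirigent proteins 10 and 10, against 40.4% higher in the whole table. Among the higher ones, dirigent protein 11-like (Ma08_g19740†) was at 5.38 against 39.8 FPKM (7.40-fold higher, interval 4.01 to 14.9). The locus next to the lower copy, dirigent protein 21-like (Ma10_g16870†), singled out after its values were seen, was at 0.5 against 14.1 FPKM (28.3-fold higher, interval 5.60 to 1366). All 6 polyketide synthases that extend phenylpropanoids were higher. Phenylpropanoylacetyl-CoA synthase-like (Ma10_g20560†) and curcumin synthase 3-like (Ma10_g20600†), named after diarylheptanoid enzymes of turmeric, measured 156 against 458 FPKM (2.95-fold higher, interval 2.72 to 3.20) and 66.9 against 390.0 FPKM (5.83-fold higher, interval 5.20 to 6.57). Enzymes of this type are known in the Musaceae for phenylphenalenone defence compounds. Polyphenol oxidases, the browning enzymes, were higher at Ma10_g20510 (237 against 721 FPKM) and Ma07_g03540† (9.04 against 93.5 FPKM), by 3.04-fold and 10.3-fold. Their list, which also holds blue copper proteins, had 7 higher and 13 lower members, near the shares of the whole table.

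Class III peroxidases, secreted enzymes that make or use hydrogen peroxide in the wall, lay on both sides. The list had 22 higher and 21 lower members and kept its share of the library, 0.496% and 0.4995%. Cationic peroxidase SPC4-like (Ma03_g02760†) measured 1052 against 2406 FPKM (2.29-fold higher, interval 2.21 to 2.37). In contrast, peroxidase 60-like (Ma02_g06740) measured 764 against 138 FPKM (5.53-fold lower, interval 5.07 to 6.03) and peroxidase 1-like (Ma06_g23680) 686 against 79.7 FPKM (8.60-fold lower, interval 7.67 to 9.67). The respiratory burst oxidases, which make extracellular superoxide, also had 3 members in each direction, led by homolog B (Ma06_g13290†) at 35.2 against 134 FPKM (3.81-fold higher, interval 3.42 to 4.23). Germins were higher for 10 of 11, with a median log2 ratio of 1.76, and went from 0.140% to 0.668% of the library. The list of antioxidant enzymes had 10 higher and 14 lower members, near the shares of the whole table. Inside the cell, ascorbate peroxidase (Ma07_g15360†) and mitochondrial manganese superoxide dismutase (Ma08_g22100†) were lower, at 364 against 145 FPKM (2.51-fold lower, interval 2.25 to 2.81) and 205 against 79.2 FPKM (2.58-fold lower, interval 2.21 to 3.01). Glutathione S-transferase U10-like (Ma05_g11740), a detoxifying enzyme, measured 98.4 against 633 FPKM (6.43-fold higher, interval 5.65 to 7.35), and monothiol glutaredoxin-S3 (Ma10_g26080†) 17.8 against 263 FPKM (14.8-fold higher, interval 10.002 to 22.7).

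**Figure D4:**
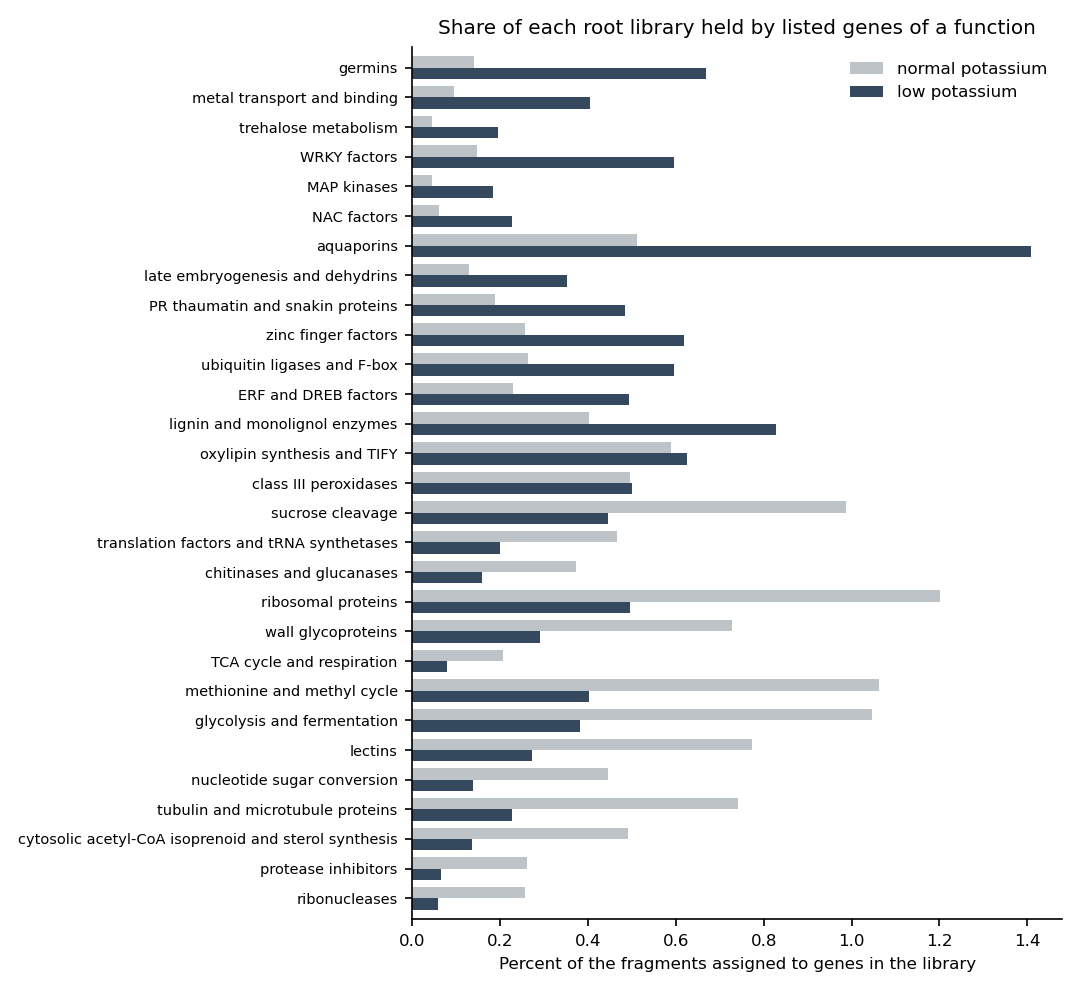
Percent of the fragments assigned to genes in each root library that was held by the listed genes of 29 functions chosen after their values were seen, in normal (light) and low potassium (dark), ordered by their ratio. Of those drawn, germins lie at one end, 0.140% and 0.668%, and ribonucleases at the other, 0.257% and 0.0586%, while class III peroxidases are nearly equal.

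The shares of the library given here and in the plot by function carry exact (Clopper-Pearson) binomial 95% intervals for counting error. Over all lists and both libraries no bound lay farther than 0.0112 percentage points from its share.

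Among transporters, those of potassium were few, with 4 higher and 6 lower, near the shares of the whole table, while their regulators were one-sided. CBL-interacting kinases and CBL sensors were higher for 11 of 12, and their share of the library went from 0.0315% to 0.0974%. Aquaporins had 11 higher and 8 lower members, and 3 of the 4 named PIP1-2 were higher, the abundant Ma07_g18280† and Ma10_g07860† among them, while Ma05_g12170† was lower, at 433 against 104 FPKM (4.16-fold lower, interval 3.71 to 4.67). The tonoplast channel TIP1-1 (Ma11_g02140†) was at 1064 against 353 FPKM (3.01-fold lower, interval 2.82 to 3.23). With the abundant PIP1-2 and PIP2-2 among them, aquaporins as a whole went from 0.511% to 1.41% of the library. Vacuolar proton pumps, which energise storage in the vacuole, were lower for all 10 listed genes. The proton-pumping pyrophosphatase Ma03_g12920† measured 209.8 against 68.0 FPKM (3.08-fold lower, interval 2.82 to 3.37) and the V-type ATPase catalytic subunit A (Ma01_g01200†) 196 against 92.4 FPKM (2.12-fold lower, interval 1.94 to 2.32). Plasma membrane proton ATPases, which drive uptake from the soil, were the 2 higher members of the proton pump list, at 52.2 against 155 FPKM (2.96-fold higher, interval 2.71 to 3.24) for Ma10_g30850† and 5.26 against 12.6 FPKM (2.40-fold higher, interval 1.79 to 3.23) for Ma03_g29190†.

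Genes of nitrogen uptake and assimilation were 7 higher and 13 lower, near the shares of the whole table. For nitrate, the high-affinity transporter 2.1-like gene (Ma08_g13030†) measured 173 against 43.9 FPKM (3.93-fold lower, interval 3.46 to 4.48), its activating partner protein (Ma09_g01900) 314 against 139 FPKM (2.26-fold lower, interval 1.98 to 2.57), and a 2.5-like transporter (Ma01_g16930) 89.6 against 2.04 FPKM (43.9-fold lower, interval 24.9 to 85.5). Ammonium transporter 2 member 1-like (Ma04_g19270) was higher, at 9.53 against 38.5 FPKM (4.04-fold higher, interval 3.04 to 5.43). The largest higher folds of the list, singled out after their values were seen, started from few fragments, at 0.140 against 5.84 FPKM (41.7-fold higher, interval 7.09 to 1686) for NRT1/PTR FAMILY 7.3-like (Ma04_g19720) and 0.630 against 15.7 FPKM (24.97-fold higher, interval 10.4 to 78.3) for asparagine synthetase (Ma05_g30550). The nitrogen-assimilating NADH glutamate synthase 1 (Ma07_g25920†) was at 115 against 53.7 FPKM (2.13-fold lower, interval 2.0003 to 2.27). Phosphate and sulfate handling were higher for 6 of 8, with phosphate transporter 1-8 (Ma04_g33330†) at 32.3 against 94.5 FPKM (2.92-fold higher, interval 2.51 to 3.41) and sulfate transporter 3.1-like (Ma06_g25800†) at 33.4 against 107 FPKM (3.21-fold higher, interval 2.81 to 3.68). Metal transport and binding was higher for 14 of 17. Nramp5-like (Ma05_g28320), in rice the root importer of manganese, measured 43.0 against 232 FPKM (5.39-fold higher, interval 4.78 to 6.10). A vacuolar iron transporter (Ma09_g27900) was lower, at 29.0 against 4.10 FPKM (7.07-fold lower, interval 3.94 to 13.7). The sodium/hydrogen exchanger 8 gene (Ma08_g18780), of the family that exports sodium from roots, measured 84.7 against 235 FPKM (2.78-fold higher, interval 2.60 to 2.96). Sugar transporters were 8 higher and 7 lower, 53.3% higher against 40.4% in the whole table, and 3 were higher and 4 lower by at least 4-fold. Among the higher ones, sugar carrier protein C-like (Ma09_g25000†), of carriers that bring hexoses into cells, measured 89.2 against 252 FPKM (2.82-fold higher, interval 2.57 to 3.10). Amino acid transport genes were evenly divided, 7 higher and 7 lower, with folds of up to 27.3 higher and 31.3 lower. A vacuolar amino acid transporter 1-like gene (Ma06_g37300) was 27.3-fold higher from a low level, at 2.76 against 75.5 FPKM (interval 16.6 to 48.3).

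In most families of transcription factors more genes were higher than lower, above all in the WRKY family, which acts in stress and defence. WRKY factors were higher for 55 of 59, with a median log2 ratio of 2.13, and 32 were higher by at least 4-fold. The most abundant were WRKY 38 (Ma05_g07250) at 115 against 648 FPKM (5.64-fold higher, interval 5.10 to 6.26), WRKY 31 (Ma10_g15390†) at 111 against 486 FPKM (4.36-fold higher, interval 4.04 to 4.71) and WRKY 40 (Ma01_g00720) at 37.9 against 522 FPKM (13.8-fold higher, interval 11.6 to 16.4). The exceptions were of low level. WRKY 9 (Ma07_g20190), 14 (Ma05_g03460), 35 (Ma09_g03010) and 47 (Ma11_g16200) went from between 3.75 and 16.2 FPKM to between 0.540 and 7.06 FPKM. NAC factors were higher for 37 of 43, with a median log2 ratio of 1.71, led by NAC domain protein 2-like (Ma03_g19830†) at 88.4 against 349.7 FPKM (3.96-fold higher, interval 3.52 to 4.47). A second gene of that name (Ma06_g27170) measured 9.46 against 129 FPKM (13.7-fold higher, interval 9.64 to 19.99). MYB factors were higher for 24 of 35, bHLH factors for 20 of 33, zinc finger factors for 38 of 53 and ERF and DREB factors for 55 of 79. Each of these families had abundant or strongly higher members. MYB44-like (Ma09_g23100†) measured 28.8 against 155 FPKM (5.37-fold higher, interval 4.44 to 6.54), bHLH92-like (Ma03_g30510) 15.8 against 327 FPKM (20.6-fold higher, interval 15.8 to 27.3), and DREB 1G-like (Ma04_g26300†), of the cold and drought factors, 41.9 against 475 FPKM (11.3-fold higher, interval 9.56 to 13.6). An A20 and AN1 zinc finger stress-associated protein gene (Ma03_g10800) reached the highest level of these, at 327 against 1093 FPKM (3.34-fold higher, interval 3.05 to 3.65). Lower exceptions included RAP2-13-like (Ma09_g12570†) at 142 against 13.6 FPKM (10.4-fold lower, interval 8.05 to 13.7), and heat stress factor B-4c-like (Ma03_g06960†) at 55.2 against 3.56 FPKM (15.5-fold lower, interval 9.38 to 27.6), whose *Arabidopsis* relative acts in the root meristem. Genes for homeobox, GRAS, LOB and PLETHORA factors, many of which pattern the root, were 18 higher and 25 lower, near the shares of the whole table.

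Ethylene synthesis and signalling was higher for 14 of 18 genes. The transcription factor EIN3-like 1, which switches on ethylene responses, had copies Ma08_g22320† at 66.5 against 305 FPKM (4.59-fold higher, interval 4.19 to 5.04) and Ma02_g13450† at 79.2 against 163 FPKM (2.06-fold higher, interval 1.87 to 2.27). The F-box protein that degrades it, EBF1-like (Ma10_g26870†), was higher too, at 43.9 against 198 FPKM (4.50-fold higher, interval 4.03 to 5.04). All 4 lower members were ACC oxidases, the last enzyme of ethylene synthesis. They included the most abundant copies, Ma05_g09360 at 201 against 8.68 FPKM (23.2-fold lower, interval 16.3 to 34.1) and Ma06_g02600 at 130.3 against 42.8 FPKM (3.05-fold lower, interval 2.54 to 3.67). Other ACC oxidase copies were higher, 5 in all, such as Ma06_g14370† at 10.3 against 50.7 FPKM (4.91-fold higher, interval 3.50 to 7.02). All 4 listed ACC synthases, which make its substrate, were higher, and they were singled out after their values were seen. The highest of them, Ma02_g10500†, was at 1.62 against 21.7 FPKM (13.4-fold higher, interval 7.05 to 28.6).

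In the oxylipin list, TIFY proteins and 9S-lipoxygenases went apart, again counted by name after their values had been seen. Enzymes of jasmonate synthesis were not counted separately. TIFY proteins, repressors that jasmonate induces, were higher for 17 of 19. TIFY 10A-like (Ma06_g32750) measured 99.3 against 861 FPKM (8.67-fold higher, interval 7.64 to 9.86), TIFY 10B-like (Ma11_g08880) 103 against 662 FPKM (6.44-fold higher, interval 5.72 to 7.28), and TIFY 5A-like (Ma06_g32910) 8.48 against 239 FPKM (28.1-fold higher, interval 17.1 to 49.7). The 9S-lipoxygenases, which oxidise fatty acids outside the jasmonate route, were lower for 5 of 6. Of these, Ma06_g26890†, Ma01_g18040† and Ma01_g18060† measured 958 against 252 FPKM (3.80-fold lower, interval 3.65 to 3.96), 305 against 73.8 FPKM (4.14-fold lower, interval 3.83 to 4.47) and 232 against 41.2 FPKM (5.62-fold lower, interval 5.09 to 6.23). The exception, Ma09_g19140†, singled out after its values were seen, was at 102 against 313 FPKM (3.08-fold higher, interval 2.88 to 3.30). The list of oxylipin synthesis and TIFY genes had 26 higher and 9 lower members and a near-constant share of the library, 0.588% and 0.625%. The jasmonate-clearing P450 94C1-like gene (Ma10_g11360†), whose *Arabidopsis* relative oxidises jasmonoyl-isoleucine, measured 12.8 against 211 FPKM (16.4-fold higher, interval 13.2 to 20.8).

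All 5 abscisic acid genes were higher, from low levels. The 9-cis-epoxycarotenoid dioxygenases, the committed step of its synthesis, were Ma06_g32880 at 3.34 against 30.8 FPKM (9.22-fold higher, interval 6.18 to 14.3) and Ma04_g38030 at 2.97 against 24.1 FPKM (8.13-fold higher, interval 5.30 to 13.0). The breakdown enzyme abscisic acid 8'-hydroxylase 3 (Ma04_g18900†) was higher as well, at 23.4 against 56.1 FPKM (2.40-fold higher, interval 1.97 to 2.91). Protein phosphatases 2C, a family that includes repressors of abscisic acid signalling, were higher for 22 of 29. Auxin genes were lower for 21 of 34, close to the 59.6% of the whole table, and the list went from 0.177% to 0.241% of the library. The efflux carrier component 2 (Ma01_g09070†), which moves auxin through the root tip, measured 152 against 13.8 FPKM (11.0-fold lower, interval 9.08 to 13.5), and the repressor IAA30-like (Ma04_g27630†) 180.3 against 50.5 FPKM (3.57-fold lower, interval 2.98 to 4.29). The small auxin-induced protein 15A-like (Ma05_g15140) was higher, at 23.6 against 176 FPKM (7.46-fold higher, interval 5.11 to 11.3). Gibberellin, cytokinin and brassinosteroid genes were evenly divided, 11 each way, with gibberellin-regulated protein 6-like (Ma07_g19330) at 200.1 against 40.2 FPKM (4.97-fold lower, interval 3.68 to 6.85) and the GRAS-type chitin-inducible gibberellin-responsive protein 1-like (Ma09_g11650) at 122 against 643 FPKM (5.26-fold higher, interval 4.90 to 5.65).

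Signalling kinases separated by type. MAP kinases were higher for 17 of 20, with a median log2 ratio of 1.65. Mitogen-activated protein kinase 5 (Ma06_g34790†), in rice a kinase of stress and defence, measured 93.9 against 759 FPKM (8.08-fold higher, interval 7.32 to 8.92). The kinase kinase kinases NPK1-like at the neighbouring loci Ma06_g09230† and Ma06_g09240† measured 21.9 against 129 FPKM (5.87-fold higher, interval 4.87 to 7.10) and 26.9 against 148 FPKM (5.51-fold higher, interval 4.66 to 6.57), while the NPK1-like genes Ma02_g07300† and Ma09_g20020† were lower, by 3.08-fold and 2.65-fold. Calcium sensors and calcium-dependent kinases were higher for 20 of 30, with the calcium-binding protein CML31 gene (Ma01_g21640†) at 89.3 against 760.4 FPKM (8.52-fold higher, interval 7.46 to 9.75). Receptor kinases of the leucine-rich repeat type were lower for 57 of 82, but 60% of the 15 whose mean FPKM reached the median of all listed genes were higher, whereas other receptor kinases were divided 43 and 45. Ubiquitin ligases and F-box proteins, which mark proteins for degradation, were higher for 81 of 123. The immune-type U-box ligases 16-like (Ma07_g23620†) and PUB23-like (Ma07_g03310†) measured 90.9 against 457 FPKM (5.03-fold higher, interval 4.67 to 5.42) and 76.7 against 389.9 FPKM (5.08-fold higher, interval 4.58 to 5.66). All 9 VQ and NPR1-type immune regulators were higher, 6 of them named MKS1-like, a VQ protein bound by a MAP kinase in *Arabidopsis*, with NPR1-like (Ma03_g16200), a salicylic acid co-activator, at 16.4 against 50.5 FPKM (3.09-fold higher, interval 2.51 to 3.81). All 6 genes of senescence and autophagy, the recycling of cell contents, were higher, for example the autophagosome protein ATG8g-like (Ma08_g10960) at 106 against 270.2 FPKM (2.54-fold higher, interval 2.12 to 3.07).

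Lectins were lower for 13 of 16 and protease inhibitors for 7 of 11, the latter close to the 59.6% over all listed genes, and these lists went from 0.773% and 0.262% of the library to 0.272% and 0.0657%. The 3 higher lectins differed by large folds. Horcolin-like (Ma09_g10350) measured 7.26 against 576 FPKM (79.4-fold higher, interval 46.2 to 149.7), jacalin-related lectin 35-like (Ma09_g25980†) 9.66 against 283 FPKM (29.3-fold higher, interval 18.3 to 47.1), and the mannose/glucose-specific lectin-like gene Ma05_g23950† 49.3 against 1380 FPKM (28.0-fold higher, interval 24.1 to 32.8). All 4 ribonucleases, which break down RNA and release phosphate, were lower, from a summed 0.257% to 0.0586% of the library. Ribonuclease 3-like (Ma04_g08930) measured 1347 against 264 FPKM (5.09-fold lower, interval 4.72 to 5.50). Beta-glucosidase 13-like (Ma09_g07510), which splits glucosides, was at 1027 against 81.1 FPKM (12.7-fold lower, interval 11.6 to 13.8), and patatin-like protein 2 (Ma06_g03920), a lipid acyl hydrolase, at 1385 against 539.7 FPKM (2.57-fold lower, interval 2.46 to 2.68). Chitinases and glucanases were lower for 28 of 41, so 31.7% were higher, not far from the 40.4% of the whole table. Folds reached 24.2 among the 13 higher members and 25.1 among the lower ones. Of the lower ones, chitinase 10-like (Ma09_g16070) was at 210.2 against 22 FPKM (9.55-fold lower, interval 7.56 to 12.2). Pathogenesis-related, thaumatin and snakin proteins were higher for 22 of 35. Thaumatin-like protein 1b (Ma04_g22380) measured 1.98 against 52.2 FPKM (26.4-fold higher, interval 13.1 to 61.9), but the antimicrobial snakin-2-like (Ma07_g21450) 318 against 19.1 FPKM (16.6-fold lower, interval 11.2 to 25.7).

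**Figure D5:**
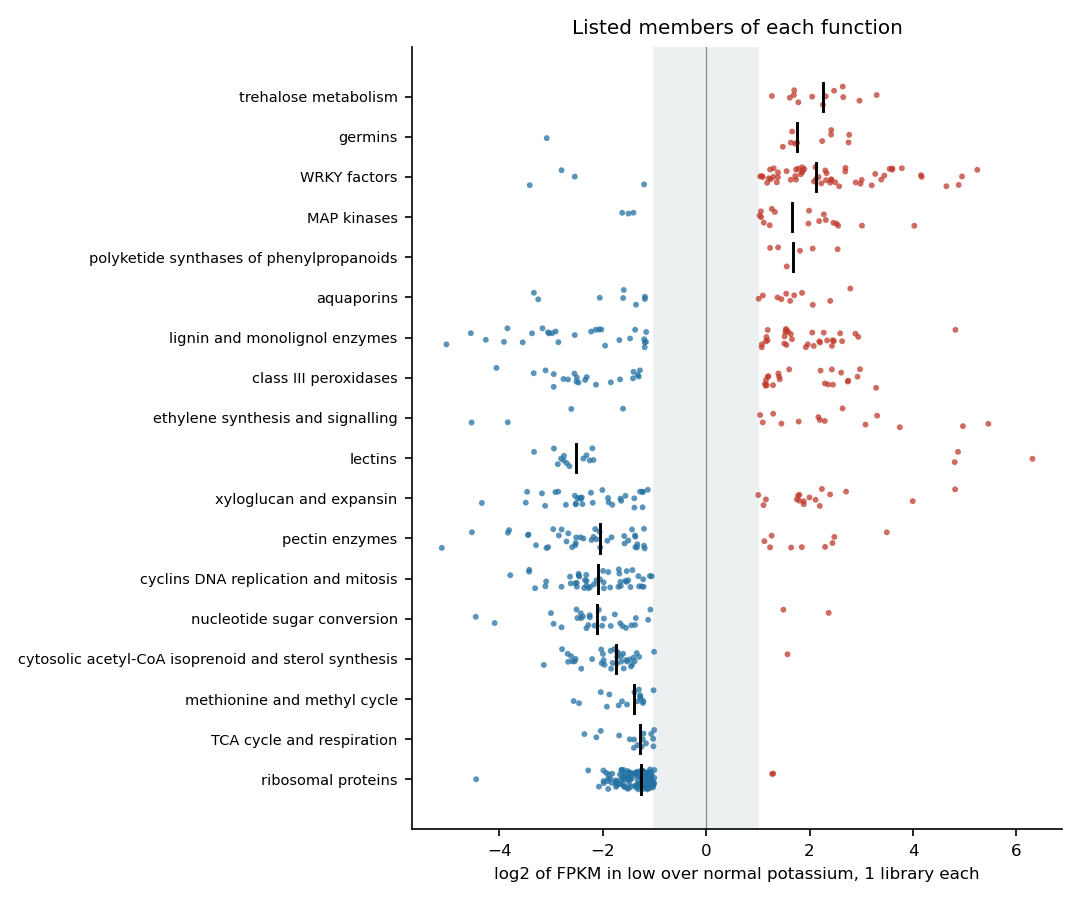
Log2 of FPKM in low over normal-potassium root for every listed member of 18 functions chosen after their values were seen, 1 point per gene and 1 library per group, red where higher and blue where lower. Genes at 0 are drawn at their bound, the grey band is the range left out by the limit of the table, and black bars give the median where at least 80% of the members share a direction. Ribosomal proteins lie close to the limit, while lignin enzymes, peroxidases and pectin enzymes spread over both sides.

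Most groups of genes with the same protein name had a single direction. Of 759 names carried by 2 or more listed genes, 199 had all genes higher, 366 had all lower and 194 had genes in both directions. Direction was also compared between neighbouring loci. Of 60 pairs of same-name genes with consecutive locus numbers 83.3% shared a direction, against 76.9% of all pairs with the same name and 51.8% of all possible pairs of listed genes. Among the 700 consecutive pairs that differ in name it was 61.1%. Genes of the same name may share sequence and counted fragments, which was not examined, so the pairs cannot be taken as independent. The longest run was that of the germin-like protein 2-1 genes from Ma05_g29060† to Ma05_g29110, 6 loci that were all higher. The lectin run from Ma09_g10440† to Ma09_g10470† had 4 loci, all lower, and the curcumin synthase 3-like run that ends at Ma10_g20600† had 3, all higher. The 10 opposite pairs included hevamine-A-like, with Ma08_g33260† at 105 against 227 FPKM (2.17-fold higher, interval 1.93 to 2.43) beside the abundant lower copy Ma08_g33270†. The peroxidase P7-like run held 4 loci, of which Ma02_g17250† at 702 against 110.4 FPKM (6.36-fold lower, interval 5.75 to 7.06) and Ma02_g17260† at 136 against 8.17 FPKM (16.6-fold lower, interval 11.6 to 24.1) were lower. The locus between them and the last, Ma02_g17270†, singled out after its values were seen, was higher, at 3.82 against 25.5 FPKM (6.68-fold higher, interval 3.91 to 12.1).

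Of the root genes, 410 were also listed in leaf, which is 8.64% of the root table and 34.7% of the 1183 leaf genes. The direction was shared by 299, of which 266 were higher and 33 lower in both tissues. Of the other 111, 81 were lower in root and higher in leaf, and 30 the reverse. Most of the shared genes were thus higher in leaf, among the higher and the lower root genes alike, and the excess of 81 over 30 follows in part from this. The lectin run from Ma09_g10440†, the abundant sucrose synthase, the Bowman-Birk inhibitor Ma05_g10670† and the 9S-lipoxygenases Ma06_g26890†, Ma01_g18040† and Ma01_g18060† were lower in root and higher in leaf. Markers of other tissues in the root table were few. The 4 green tissue genes were all higher, with a summed level of 30.1 and 108 FPKM, for example chlorophyll a-b binding protein (Ma04_g39550) at 2.60 against 20.2 FPKM (7.75-fold higher, interval 3.85 to 17.7). Endodermis genes, taken only by the words CASP-like or casparian strip, were 4 higher and 2 lower, with a summed level of 73.5 and 208 FPKM. Whether each of them is expressed in the endodermis was not tested. Both xylem cysteine proteinases were higher, summed 36.9 and 90.5 FPKM. Root hair and epidermis genes were 1 higher and 2 lower, summed 77.0 and 28.8 FPKM. The words for that set also took in COBRA names, among them the secondary wall gene COBRA-like protein 4 (Ma04_g14410†), so its sum does not stand for root hairs alone. None of these markers was at 0 in either library, and their part in the differences above was not tested.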

How the data were processed

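RNA of 1 root library per potassium supply was analysed. The authors deposited estimated counts of fragments per gene, not all of them whole, and FPKM values, per the file headers. They also deposited a log2 ratio and a false discovery rate (an adjusted p-value), per the file headers, and the table lists only genes with a rate below 0.001 and an absolute log2 ratio of at least 1. The aligner, counter, genome build and test were not given in the sources used here. A FPKM deposited as 0.001 stands for 0 fragments and was set to 0.

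Library totals were recovered from the line of count over FPKM against coding length. Within 1% of it lay 2131 of 2199 genes in normal and 1772 of 1772 in low potassium. With 1 library per group no test was made. Each fold is the FPKM ratio, with an exact binomial (Clopper-Pearson) 95% interval on counts rounded to whole numbers. Genes at 0 were set against a floor of 3 counts per library. Intervals and floors cover counting error only, since PCR copies are not independent molecules. Gene lists are words in the protein description. The genes and lists were chosen with earlier results of these data known, and lists were extended after descriptions and values had been seen. Named genes come from a pool of the 15 most abundant and the 15 most different each way, in each list the 4 most abundant, the 2 most different each way and all members of a direction with 5 or fewer, and the top 5 genes at 0 in 1 library each way. The most different were sought among genes whose mean FPKM was at least the median of the table. The text names 199 of these 600 genes, picked for the functions described with their values in view, and 7 outside the pool, also named after their values were seen. A deposited table of potassium genes was not used here. The script was tested on simulated data. Software was Python 3.11.15, pandas 2.3.3, numpy 2.4.6, SciPy 1.17.1 and matplotlib 3.10.9. Alternatives tried were a pseudocount of 1, filters on level, count and whole counts, ratios from counts, and scaling to the listed genes.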

Additional observations from a re-analysis of the deposited data

Results flagged for a closer look

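Of 206 root genes named in the text, 50 were also listed in leaf, and 12 of these had the opposite direction there, 11 of them lower in root and higher in leaf. Each tissue has 1 library per potassium supply, so the difference between tissues was not tested. All values here are log2 ratios of low over normal potassium, the root value first, as in the authors' deposited tables. Among the lectins, Ma09_g10440 was at -2.70 and 1.99, Ma09_g10460 at -2.37 and 1.56, and Ma09_g10470 at -2.20 and 3.06. The Bowman-Birk type proteinase inhibitor-like gene Ma05_g10670 was at -3.20 and 1.58. Among the 9S-lipoxygenases the values were -1.93 and 2.12 for Ma06_g26890, -2.05 and 1.77 for Ma01_g18040, and -2.49 and 1.42 for Ma01_g18060. Enzymes of carbon metabolism were sucrose synthase 2-like Ma02_g23730 at -1.05 and 1.16, and alcohol dehydrogenase Ma08_g29910 at -3.65 and 1.87. The plastid-type phosphofructokinase 5 Ma07_g11340 had the reverse pattern, at 1.66 and -1.35. Adenosylhomocysteinase Ma09_g01600 was at -1.63 and 1.59, and the pectinesterase-like gene Ma04_g40060 at -2.67 and 2.25.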

How the results depend on the processing

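No log2 ratio changed sign among the 206 genes named and recomputed here, nor did the recomputed list medians. For single genes this is no check of direction. A pseudocount keeps the sign, and count ratios rest on totals recovered from the same values. Scaling to the listed genes shifts each ratio by -0.00164, while none is below 1 in size. The majority direction of members turned in 6 of 60 lists. Among genes whose mean FPKM was at least the median of the table, the percent higher went from 30.5 to 60 for leucine-rich repeat receptor kinases, from 38.2 to 52.4 for auxin genes, from 41.9 to 56.25 for homeobox, GRAS, LOB and PLETHORA factors, from 48.9 to 62.5 for other receptor kinases, and from 51.2 to 48.4 for class III peroxidases. It went from 40 to 57.1 for the 7 potassium transport genes left past the limit with a pseudocount of 1, and to 53.7 for other receptor kinases with whole counts. In 5 lists it became even under 1 alternative each, and 2 evenly divided lists leaned one way under at least 1 alternative. The counts of 1917 higher and 2830 lower genes became 1149 and 1225 for genes whose mean FPKM was at least the median of the table, and 1164 and 1514 for genes with whole counts in both libraries, which follows from the fewer genes kept. The percent higher went from 40.4 to 48.4 and 43.5. The other alternatives left both counts within 1.5 times. With a pseudocount of 1 the ratios of 9 genes moved, 7 at 0 in 1 library and 2 that started from few fragments, Ma04_g19720 and Ma05_g30550. The median of kinesins moved to -1.44 with that pseudocount and to -1.46 among the 2 kept by the filter on level, and that of ribosomal proteins to -1.17 with whole counts. No paired analysis was possible because each group has 1 library. Genes missing from the table may be unchanged, low or not called at this depth, so counts of members describe listed genes only, and similar copies with shared fragments limit the values marked with a dagger.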
